A study of Mus musculus with 8 samples.

Results

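The 9 genes described here carry dietary sugar through the enterocyte, the absorptive cell of the small intestine. They are the brush border disaccharidase genes Sis, Lct, Mgam and Treh, the sugar transporter genes Slc5a1, Slc2a5 and Slc2a2, and the sugar-processing enzyme genes Khk and G6pc. They were chosen by name, and all 9 of 9 were found, each once, among the 34745 genes of each deposited table. The libraries came from crypts, the epithelial glands of the gut, of wild-type C57BL/6 mice on day 5. The DSS group of 4 libraries had received dextran sulfate sodium (DSS), a polymer that damages the gut epithelium and gives mice colitis. The DSS_CA group of 4 libraries had received DSS with CA, cholic acid in the series title, a bile acid made by the liver. Both groups therefore carry DSS, and the series has no group without it. The labels do not say whether each library is a separate mouse, so the p-values measure the spread between these libraries, which may be technical.

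Starch, sucrose, milk sugar and trehalose are split at the brush border, the layer of microvilli that faces the gut lumen, by membrane-bound enzymes. Sucrase-isomaltase, encoded by Sis, splits sucrose and starch fragments, lactase (Lct) splits lactose, maltase-glucoamylase (Mgam) frees glucose from starch fragments, and trehalase (Treh) splits trehalose. Glucose and galactose then enter the cell with sodium through SGLT1 (Slc5a1), fructose enters through GLUT5 (Slc2a5), and the sugars can leave towards the blood through GLUT2 (Slc2a2). Ketohexokinase (Khk) starts the breakdown of fructose inside the cell, and glucose-6-phosphatase (G6pc) releases free glucose from glucose 6-phosphate. In the intestine these genes are known mainly as products of mature villus enterocytes, and lactase is known to decline after weaning.

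The 4 disaccharidase promoters are shown because these genes act at the same membrane, yet their transcripts differed from one another in how they varied across the libraries. Each sequence is the 250 bases before the RefSeq transcription start on GRCm38.p6, written 5′ to 3′ on the gene's own strand. The windows are chr3:72967864-72968113 for Sis and chr1:128328319-128328568 for Lct, both on the minus strand, and chr6:40628581-40628830 for Mgam and chr9:44672983-44673232 for Treh, both on the plus strand. Capitals mark matches, on either strand, to TTTATG (bound by CDX factors), GTTAAT (the core of HNF1 sites), AGATAA (bound by GATA factors) and CAAAGTCCA (bound by HNF4 factors).
Sis: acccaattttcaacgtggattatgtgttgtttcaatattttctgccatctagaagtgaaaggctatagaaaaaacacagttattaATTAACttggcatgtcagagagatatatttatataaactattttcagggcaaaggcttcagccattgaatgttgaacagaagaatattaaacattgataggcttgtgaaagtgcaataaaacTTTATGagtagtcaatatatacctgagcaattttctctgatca
Lct: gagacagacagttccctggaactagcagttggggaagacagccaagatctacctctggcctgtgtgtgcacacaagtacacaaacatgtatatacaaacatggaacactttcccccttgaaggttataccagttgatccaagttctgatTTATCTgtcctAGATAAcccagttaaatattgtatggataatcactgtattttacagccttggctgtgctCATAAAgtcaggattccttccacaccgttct
Mgam: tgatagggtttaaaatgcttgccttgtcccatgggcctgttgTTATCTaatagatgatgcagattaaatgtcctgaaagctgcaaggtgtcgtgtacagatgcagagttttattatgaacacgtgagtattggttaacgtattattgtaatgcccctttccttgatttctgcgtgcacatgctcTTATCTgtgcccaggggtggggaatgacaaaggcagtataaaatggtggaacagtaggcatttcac
Treh: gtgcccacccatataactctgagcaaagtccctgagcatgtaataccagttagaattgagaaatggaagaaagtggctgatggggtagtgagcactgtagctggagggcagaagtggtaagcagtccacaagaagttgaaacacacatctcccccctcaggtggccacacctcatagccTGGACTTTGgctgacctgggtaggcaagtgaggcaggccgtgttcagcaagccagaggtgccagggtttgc
Sis held TTTATG from 43 to 38 bases before the start, and Lct held it on the opposite strand from 31 to 26 bases before the start. Lct also held AGATAA on each strand, and Mgam held it 2 times on the opposite strand. The GTTAAT match lay in Sis and the CAAAGTCCA match in Treh. None of these matches overlapped another. Of 32851 RefSeq promoter windows of this length, 10.76% held TTTATG, 6.43% GTTAAT, 9.99% AGATAA and 0.38% CAAAGTCCA. These are matches of letters, and binding was not measured.

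Total counts lay between 13334012 and 17973196 per library, and the 9 genes took between 0.507% and 1.06% of them. The markers of the labelled tissue were mixed. Of the crypt base stem cell genes, Olfm4 stood at 748 ± 449 CPM (counts scaled to library size) in DSS and 405 ± 166 CPM in DSS_CA (SD, n = 4). Lgr5 stood at 7.43 ± 3.50 and 2.56 ± 1.22 CPM and did not pass the filter on low values, so it was not tested. The microvillus gene Vil1, a product of mature enterocytes, stood at 2217 ± 498 and 2228 ± 442 CPM. The labels name no gut segment. The segment markers were mixed as well. Of the colon genes, Car1 had 0 counts in all 8 libraries, which allows up to 3, and Hoxb13 had 2. Aqp8 stood at 3.40 ± 0.63 and 0.245 ± 0.284 CPM, but Car4 stood at 125 ± 55.1 and 236 ± 47.5 CPM and Slc26a3 at 145 ± 48.2 and 238 ± 82.5 CPM. Of the ileal genes, Fabp6 stood at 812 ± 368 and 922 ± 841 CPM, and Gm10509 at 0.666 ± 0.681 and 0.716 ± 0.496 CPM. These segment genes, other than Car4, were chosen after their values were seen. Defa22, a Paneth cell gene, stood at 1061 ± 331 and 466 ± 113.5 CPM. The segment was not tested. DSS 2, DSS 3 and DSS_CA 3 stood apart from the other 5 libraries in mean gene length, with each gene weighted by its count divided by its length. This mean was 1423 to 1448 bases in them and 1719 to 2412 bases in the rest. The 9 genes are longer than that mean, from 2414 bases (G6pc) to 9450 bases (Mgam). For each of the 9, the estimate without these 3 libraries is given where it differs in sign or by more than 1.5 times. A fit with a gene length offset, chosen after seeing the data, kept the sign of all 9 estimates, with Lct at -0.86, Sis at -0.06 and Mgam at 0.39. The mitochondrially encoded share of counts also varied, from 9.72% in DSS_CA 1 to 27.7% in DSS 2. Among the DSS_CA libraries it was highest in DSS_CA 3, at 20.5%. A fit without mitochondrially encoded genes gave Lct at -0.80, Sis at -0.05 and Mgam at 0.33.

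None of the 9 genes differed between DSS and DSS_CA beyond the spread between libraries. All 9 passed the filter on low values and were tested with the quasi-likelihood test of edgeR. At an adjusted p of 0.05, 0 of 9 were called, against 0.131% of the 9913 genes tested, and DESeq2 called 0 of 9, against 2.22%. At an unadjusted p of 0.05, 0 of 9 passed in edgeR, against 7.82% of all tested genes. The groups overlapped in each of the 9 genes, and 6.05% of all tested genes had groups that did not overlap, so 0 of 9 is near the share over all genes. The median log2 fold change (DSS_CA against DSS) was 0.07 over the 9 genes and 0.02 over all tested genes, with 5 of the 9 above 0 and 4 below. Without DSS 2, DSS 3 and DSS_CA 3 the median over the 9 genes turned to -0.17. With 4 libraries a group the intervals are wide, and they include differences of more than 1.5-fold in at least one direction for each gene. In these libraries, any difference in the number of mature enterocytes and any in RNA per enterocyte cannot be told apart.

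**Figure D1:**
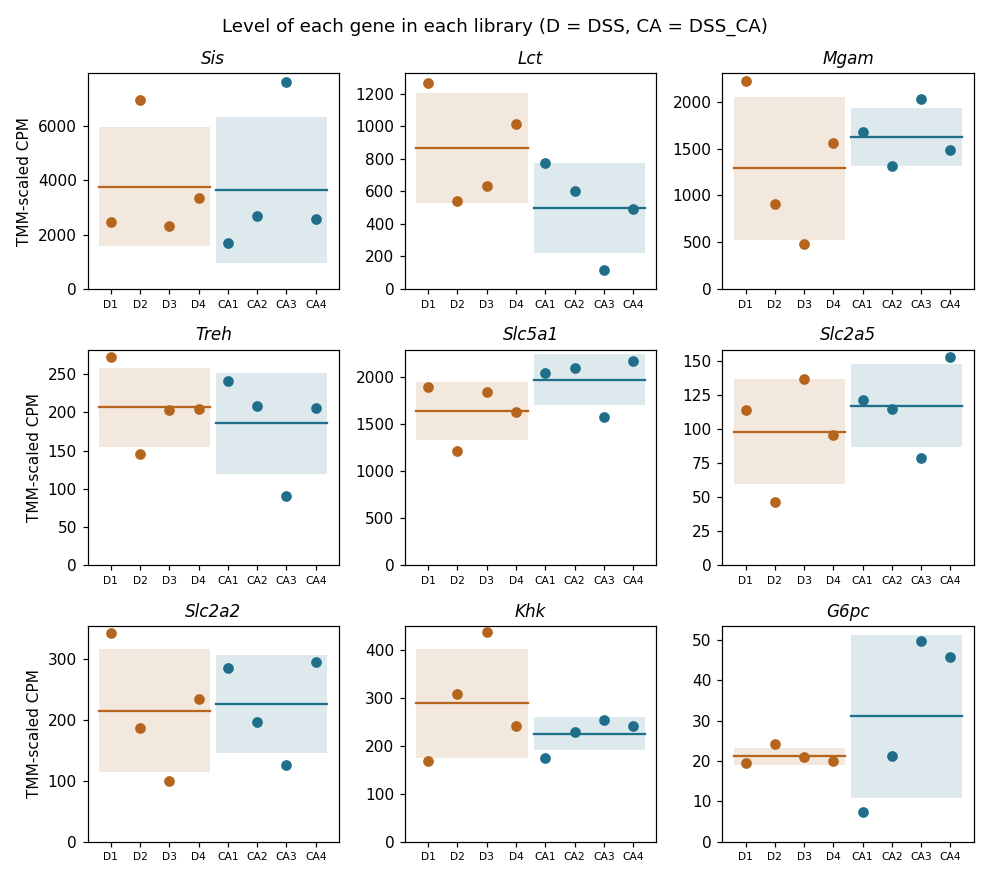
CPM scaled by TMM of each of the 9 genes (vertical axis, starting at 0) in each of the 8 libraries (horizontal axis; D1 to D4 are DSS, CA1 to CA4 are DSS_CA). Lines are group means and bands are 1 SD (n = 4); Sis is highest in D2 and CA3, where Lct, Treh, Slc5a1 and Slc2a5 are the lowest of their groups, and in every panel the groups overlap.

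Sucrase-isomaltase was the most abundant disaccharidase transcript in each of the 8 libraries on the FPKM scale, which divides by gene length, and it did not pass the test. Sis stood at 2448, 6961, 2314 and 3341 CPM in DSS 1 to 4 and at 1682, 2690, 7608 and 2565 CPM in DSS_CA 1 to 4. One library in each group, DSS 2 and DSS_CA 3, lay far above the others, and the remaining 6 libraries overlapped. The means were 3766 ± 2178 and 3636 ± 2686 CPM (SD, n = 4), and the log2 fold change was -0.05 (95% interval -1.25 to 1.14, edgeR adjusted p = 0.9995). That value follows DSS 2 and DSS_CA 3: it was 0.43 without DSS 2, -0.70 without DSS_CA 3 and -0.35 without DSS 2, DSS 3 and DSS_CA 3. Sis (ENSMUSG00000027790) lies on chromosome 3 from 72888557 to 72967863.

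Lactase had the lowest p of the 9 genes. Lct stood at 1268, 538, 636 and 1016 CPM in DSS 1 to 4 and at 774, 601, 119 and 490 CPM in DSS_CA 1 to 4. DSS_CA 3 was the lowest of all 8 libraries, at 1168 counts, and the highest DSS_CA library lay below only DSS 1 and DSS 4. The means were 864 ± 339 and 496 ± 277 CPM (SD, n = 4), with a log2 fold change of -0.80 (95% interval -1.93 to 0.33, unadjusted p = 0.148, edgeR adjusted p = 0.854). The estimate stayed below 0 in all 17 alternative fits. It was -0.48 without DSS_CA 3, and -0.91 with an adjusted p of 0.0721 without DSS 2, DSS 3 and DSS_CA 3, a fit of 2 against 3 libraries. That fit called 0 of the 9 genes, against 6.61% of all tested genes. Lct (ENSMUSG00000026354) lies on chromosome 1 from 128284756 to 128328318.

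Maltase-glucoamylase and trehalase did not pass the test. Mgam stood at 2219, 904, 477 and 1558 CPM in DSS 1 to 4 and at 1683, 1311, 2027 and 1483 CPM in DSS_CA 1 to 4. The DSS_CA libraries lay inside the range of the DSS libraries, where DSS 2 and DSS 3 were the low ones. The log2 fold change was 0.33 (95% interval -0.66 to 1.33, edgeR adjusted p = 0.979), and it turned to -0.37 without DSS 2, DSS 3 and DSS_CA 3. Mgam (ENSMUSG00000068587) lies on chromosome 6 from 40628831 to 40769123.

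Treh stood at 273, 146, 203 and 205 CPM in DSS 1 to 4 and at 241, 208, 90.3 and 205 CPM in DSS_CA 1 to 4. Of the DSS_CA libraries, 3 lay between 205 and 241 CPM and DSS_CA 3 lay apart below them. The log2 fold change was -0.15 (95% interval -0.92 to 0.62, edgeR adjusted p = 0.998), and 0.08 without DSS_CA 3. Treh (ENSMUSG00000032098) lies on chromosome 9 from 44673233 to 44686305, where Phldb1 overlaps it on the other strand. The strand setting of the counts is not given in the sources used here, and Phldb1 had 1794 counts over the 8 libraries, against 883 to 4563 of Treh in a single one.

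The sodium-driven glucose transporter gene was the steadiest of the 9 across all libraries. Slc5a1 stood at 1887, 1207, 1832 and 1630 CPM in DSS 1 to 4 and at 2034, 2091, 1576 and 2170 CPM in DSS_CA 1 to 4. In DSS_CA, 3 of 4 libraries were above every DSS library, and DSS_CA 3 was below 3 of the 4. The means were 1639 ± 308 and 1968 ± 267 CPM (SD, n = 4), with a log2 fold change of 0.26 (95% interval -0.43 to 0.96, edgeR adjusted p = 0.968). It lay between 0.14 and 0.36 with each library left out. Slc5a1 (ENSMUSG00000011034) lies on chromosome 5 from 33104219 to 33162870.

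The fructose transporter gene followed Slc5a1 at a lower level. Slc2a5 stood at 113.5, 46.3, 136 and 95.8 CPM in DSS 1 to 4 and at 121, 114.5, 78.7 and 153 CPM in DSS_CA 1 to 4. The lowest library of each group was the same as for Slc5a1, DSS 2 and DSS_CA 3. The log2 fold change was 0.25 (95% interval -0.54 to 1.04, edgeR adjusted p = 0.981), and 0.02 without DSS 2. Slc2a5 (ENSMUSG00000028976) lies on chromosome 4 from 150119283 to 150144169.

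The basolateral sugar transporter gene Slc2a2 stood at 342, 186, 99.2 and 234 CPM in DSS 1 to 4 and at 285.5, 197, 126 and 295 CPM in DSS_CA 1 to 4. The 3 libraries of short counted genes were the lowest of their groups, and the DSS_CA libraries lay inside the DSS range. The log2 fold change was 0.07 (95% interval -0.83 to 0.97, edgeR adjusted p = 0.9995), and it turned to -0.17 without DSS 3 and to -0.19 without DSS 2, DSS 3 and DSS_CA 3. Slc2a2 (ENSMUSG00000027690) lies on chromosome 3 from 28697903 to 28731359.

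**Figure D2:**
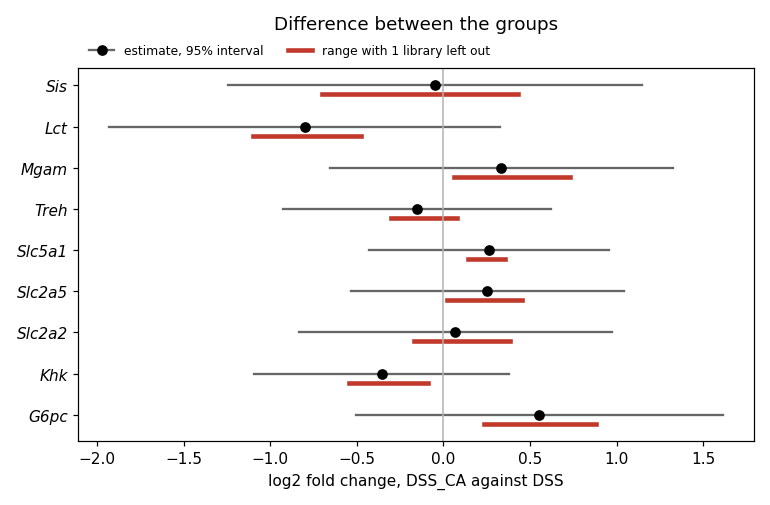
Log2 fold change of each gene, DSS_CA against DSS (horizontal axis), with its 95% interval (grey line) and the range of the estimate when each of the 8 libraries is left out in turn (red bar). All 9 intervals cross 0; Lct, at -0.80, is the lowest, and the red bars of Sis, Slc2a2 and Treh cross 0.

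Of the enzymes inside the cell, ketohexokinase was the more abundant. Khk stood at 168, 308.5, 437 and 241 CPM in DSS 1 to 4 and at 176, 229.5, 255 and 241 CPM in DSS_CA 1 to 4. The DSS_CA libraries were close together, within the range of DSS, and DSS 3 was the highest of the 8. The log2 fold change was -0.36 (95% interval -1.10 to 0.38, edgeR adjusted p = 0.938), -0.09 without DSS 3 and 0.05 without DSS 2, DSS 3 and DSS_CA 3. Khk (ENSMUSG00000029162) lies on chromosome 5 from 30921431 to 30931248.

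G6pc had the lowest mean FPKM of the 9 genes in each group, though it took place 6 in DSS_CA 3. It had 141 to 840 counts per library, and its spread was unlike in the groups. It stood at 19.4, 24.2, 21.1 and 19.9 CPM in DSS 1 to 4 and at 7.45, 21.2, 49.8 and 45.8 CPM in DSS_CA 1 to 4. The DSS libraries differed by at most 1.25-fold, whereas in DSS_CA the highest was 6.69 times the lowest, with libraries on both sides of the DSS range. The difference in spread was not tested. The log2 fold change was 0.55 (95% interval -0.51 to 1.61, edgeR adjusted p = 0.929), 0.23 without DSS_CA 3 and 0.30 without DSS 2, DSS 3 and DSS_CA 3. G6pc (ENSMUSG00000078650) lies on chromosome 11 from 101367561 to 101377903.

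Levels of different genes were compared on the deposited FPKM scale, which divides by gene length. In DSS the order of the means ran from Sis (403 ± 160 FPKM) and Slc5a1 (385 ± 141) through Mgam (140 ± 110), Lct (130 ± 78.5), Khk (75.9 ± 20.6) and Treh (67.7 ± 31.8) to Slc2a2 (30.4 ± 20.6), Slc2a5 (23.8 ± 11.1) and G6pc (8.13 ± 1.19) (SD, n = 4). All neighbours in this order overlapped in range, and Sis was above Slc5a1 in 2 of the 4 libraries. In DSS_CA, Slc5a1 (529 ± 166 FPKM) came before Sis (418 ± 179) and Treh (71.1 ± 34.6) before Khk (70.2 ± 12.0), and the other 5 genes kept their place. Among neighbours in DSS_CA, the ranges were apart between Sis and Mgam (182 ± 33.3), between Mgam and Lct (87.8 ± 56.7) and between Khk and Slc2a2 (36.0 ± 17.6), and overlapped elsewhere.

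The balance between the disaccharidases varied widely between libraries of the same group. Sis made up 36.5%, 78.9%, 56.7% and 51.2% of the summed FPKM of the 4 disaccharidases across the DSS libraries in order, and 35.2%, 52.2%, 77.8% and 50.9% across those of DSS_CA. Lct made up 23.4%, 7.56%, 19.3% and 19.3% in DSS and 20.1%, 14.5%, 1.52% and 12.1% in DSS_CA. FPKM of Sis was therefore 1.56 to 10.4 times that of Lct in DSS, and 1.75, 3.61 and 4.22 times in DSS_CA 1, 2 and 4, but 51.4 times in DSS_CA 3. The summed FPKM ranged from 407 (DSS 3) to 988 (DSS 1) in DSS and from 701 to 869 in DSS_CA.

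**Figure D3:**
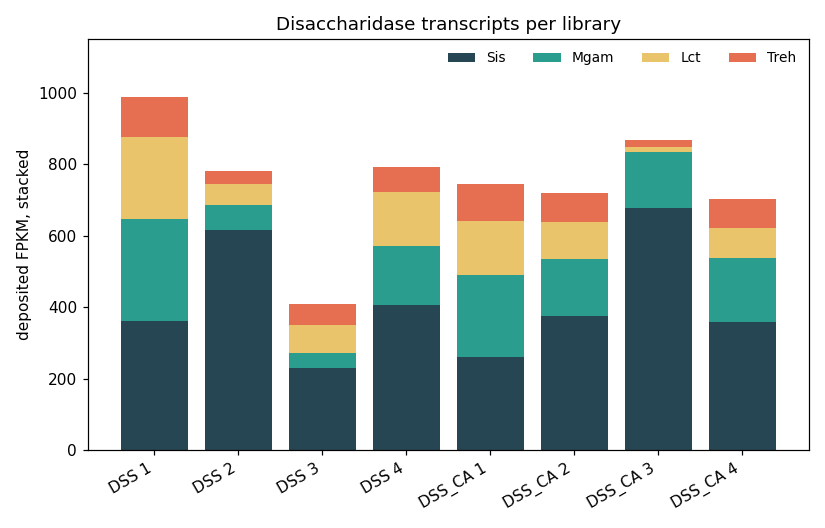
Deposited FPKM of the 4 disaccharidase genes stacked for each of the 8 libraries (vertical axis, FPKM, starting at 0). The Sis segment takes 78.9% of DSS 2 and 77.8% of DSS_CA 3 and 35.2% to 56.7% of the other libraries; the Lct segment is smallest in DSS_CA 3.

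Among the 9 genes, Slc5a1 and Slc2a5 were the most alike in how they varied. Likeness was measured as the mean absolute difference, over the 8 libraries, of log2 CPM centred on each gene's mean, and it was 0.21 for this pair. Treh followed at 0.28 from Slc5a1, and Mgam and Slc2a2 were 0.34 apart. The widest distances were 1.19 between Lct and G6pc and 1.18 between Sis and Lct. In DSS_CA 3, Sis was 1.24 above its own mean on the log2 scale and Lct 2.26 below its own.

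Each of the 9 genes had tested genes outside the 9 that lay nearer to it than any other of the 9. The search outside covered the named genes among the 9913 tested, against only the others of the 9. That imbalance alone makes a nearer gene outside likely, so it does not show whether the 9 vary together. Slc5a1 was nearest to Lpin3, Lta4h and Got1 (0.041, 0.045 and 0.046), and Treh to Gpa33, Tmem184a and Dcaf11 (0.059, 0.063 and 0.070). Sis was nearest to Zfp770, Smim15 and Gtpbp10 (0.076 to 0.099), Slc2a5 to Ric8, Coq6 and Haus4 (0.076 to 0.084) and Khk to Prdx5, Fis1 and Cdo1 (0.089 to 0.104). The distances were larger for Slc2a2 (Ncoa1 and Sbf2, 0.108 and 0.119), Lct (Bmp1, Clca3b and Fhod1, 0.131 to 0.208) and Mgam (Purb, Lats1 and Pds5a, 0.156 to 0.189). G6pc had no close neighbour, with Mrgbp, Siah1a and Taf9 at 0.323 to 0.329. These distances are a description over 8 libraries that all genes share.

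In the wider sugar pathway, 1 gene passed the threshold, the KEGG member Akr1b8. Of the 16 genes of fructose breakdown, glucose synthesis and glucose 6-phosphate handling, 13 were tested and 0 passed, with a median log2 fold change of 0.13. Fbp2, a fructose bisphosphatase, was at a mean of 138 FPKM in DSS and 180 in DSS_CA. Its log2 fold change was 0.13 (SE 0.347) on the TMM scale, a scaling that the deposited FPKM do not carry. Sord, which makes fructose from sorbitol, was at 120 and 93.7 FPKM (-0.58, SE 0.288, edgeR adjusted p = 0.694), and the related bisphosphatase gene Fbp1 at 9.93 and 8.19 FPKM (-0.52, SE 0.284).

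In the pathway that turns galactose, the other product of lactase, into glucose phosphates, 8 of 8 genes were tested and 0 passed, with a median of 0.12. Those with the smallest p were the phosphoglucomutase genes Pgm2 (58.2 and 84.1 CPM, 0.53, SE 0.274) and Pgm1 (203 and 299 CPM, 0.56, SE 0.349). Of the 42 genes that the authors' deposited annotation places in the KEGG pathway of carbohydrate digestion and absorption, 21 were tested and 0 passed, with a median of 0.07. It holds all of the 9 sugar genes except Treh and Khk. In the KEGG set of starch and sucrose metabolism 18 of 32 genes were tested and 0 passed (median 0.25). In that of fructose and mannose metabolism 28 of 34 were tested and 1 was higher, the aldo-keto reductase gene Akr1b8, at 4.47 ± 1.63 and 20.8 ± 1.58 CPM (SD, n = 4; log2 fold change 2.22, SE 0.330, edgeR adjusted p = 0.0285), against 0.0404% of all tested genes called higher. These KEGG sets were chosen after values were seen.

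Of 16 further sodium-glucose and GLUT transporter genes, 7 were tested and 0 passed (median -0.21). The most abundant were Slc5a4b (19.0 and 19.9 mean FPKM, log2 fold change -0.20 on the TMM scale), Slc5a11 (18.5 and 19.1 FPKM, -0.21) and Slc5a4a (18.7 and 13.6 FPKM, -0.67), each far below Slc5a1. Slc2a1, which encodes the glucose transporter GLUT1, was at 10.1 ± 4.42 and 20.5 ± 6.83 CPM (SD, n = 4) with groups that did not overlap. Its log2 fold change of 1.02 (SE 0.385) had an unadjusted p of 0.0224 and an edgeR adjusted p of 0.475. The kidney transporter gene Slc5a2 had 0 counts in all 8 libraries, which allows up to 3.

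Regulators linked to these genes did not pass the test either. Of 24 transcription factor and sensor genes, 20 were tested and 0 passed (median 0.09). Hnf4g was at 114 and 101 mean FPKM (log2 fold change on the TMM scale -0.38, SE 0.515) and Hnf4a at 67.8 and 85.3 FPKM (0.14, SE 0.338). Creb3l3, a factor of lipid and sugar metabolism, was at 101 and 163 FPKM (0.45 on the TMM scale, SE 0.365). Cdx2, an activator of Sis, was at 75.2 ± 23.3 and 81.2 ± 24.7 CPM, and Gata4, an activator of Lct, at 50.9 ± 19.9 and 70.3 ± 30.7 CPM. Both were chosen after their values were seen, because their motifs were searched. The smallest p were those of Gata6 (51.5 and 76.8 CPM, 0.58, SE 0.276, edgeR adjusted p = 0.669), whose groups did not overlap, and of Pdx1 (7.27 and 11.1 CPM, 0.61, SE 0.322).

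**Figure D4:**
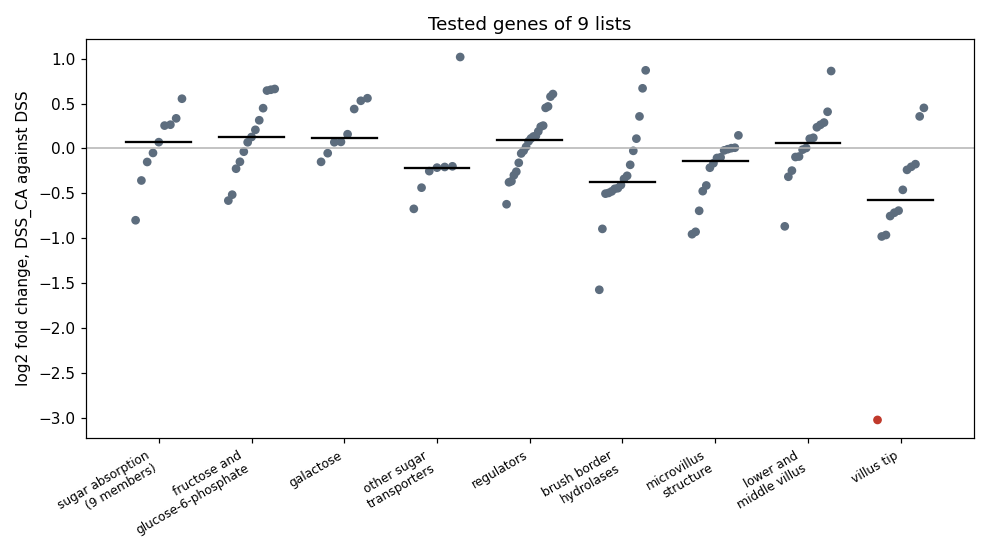
Log2 fold change, DSS_CA against DSS (vertical axis), of the tested genes of 9 lists (horizontal axis), sorted within each list. Black lines are medians and red marks a gene past an adjusted p of 0.05, which is Nt5e in the villus tip list alone; the 9 sugar genes lie between -0.80 and 0.55.

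Other products of the same enterocytes gave the setting. Of 18 further brush border hydrolase genes, 16 were tested and 0 passed, with 12 below 0 and a median of -0.37. The peptidase gene Anpep was at 697 and 772 mean FPKM, with a log2 fold change of -0.03 (SE 0.451) on the TMM scale. The phosphatase gene Alpi was at 307 and 571 FPKM (0.67, SE 0.414), and neither passed the test. Mep1a, a meprin protease subunit, had the smallest p (449 ± 181 and 151 ± 89.9 CPM, log2 fold change -1.58, SE 0.445, edgeR adjusted p = 0.228), followed by the ceramidase gene Asah2 (-0.90, SE 0.412). Of 15 microvillus structure genes, 14 were tested and 0 passed (median -0.14), with the scaffold genes Pdzk1 at -0.96 (SE 0.308) and Anks4b at -0.93 (SE 0.441).

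Genes of the lower and middle villus, had 0 of 14 past the threshold and a median of 0.06. The lipoprotein assembly genes Mttp (1964 ± 184 and 3570 ± 175 CPM, log2 fold change 0.86, SE 0.306, edgeR adjusted p = 0.414) and Apob (-0.87, SE 0.432) had the smallest p. Of 12 villus tip genes, 1 was lower, against 0.0908% of all tested genes called lower. It was the nucleotidase gene Nt5e (58.5 ± 32.1 and 7.18 ± 0.696 CPM, edgeR adjusted p = 0.0117), and the median of the list was -0.58. The median of the 9 sugar genes was 0.07. Without DSS 2, DSS 3 and DSS_CA 3 the medians were -0.79 for the villus tip list and -0.17 for the 9 sugar genes. The difference between the lists was not tested.

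Segment markers did not pass either. Of proximal small intestine genes, 0 of 11 passed (median 0.12), with Cyp2b10 at -1.05 (SE 0.308) and the hormone gene Gip at -0.79 (SE 0.275). Of ileal genes, 0 of 9 passed (median 0.07), with Fgf15 at 2.27 (SE 0.530) and Cubn at -1.30 (SE 0.574). Of colon genes, 0 of 6 tested passed (median -0.42), with Ang4 at -1.67 (SE 0.560) and Car4 at 0.92 (SE 0.341). Ang4 is also on the Paneth cell list, so its value is not particular to the colon.

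Of the markers of other cell types, 2 passed the test, both of T and NK cells. The T and NK cell list had 2 of 10 genes lower, Itgae and Ccl5, against 0.0908% of all tested genes called lower. Its median was -1.91 and its summed level 647 to 2081 CPM in DSS and 128 to 1120 CPM in DSS_CA. In the Paneth cell list 0 of 8 passed (median -1.41; summed level 6547 to 39010 and 4872 to 17710 CPM), with Defa22 at -1.19 (SE 0.347) and Defa17 at -1.91 (SE 0.564). Goblet cell genes had 0 of 7 past the threshold (median -1.01; 7985 to 11900 and 3617 to 7953 CPM), with Clca1 at -1.36 (SE 0.363) and Tff3 at -0.80 (SE 0.322). Their part in the levels of the 9 genes was not tested.

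In the remaining lists 0 genes passed. The median was -0.20 over 9 tested crypt stem cell genes (Slc12a2 at -0.87, Olfm4 at -0.88), 0.16 over 10 cycling cell genes (Rrm2 at 0.94, Cenpf at -1.35) and -0.40 over 7 enteroendocrine genes (Gip, and Sst at -0.88). It was -0.80 over 3 tuft cell genes, with Alox5ap at -0.80, and -1.76 over 3 B and plasma cell genes, with Igkc at -1.90 and Ighm at -1.76. The 1 tested myeloid gene, Lyz2, was at -1.60, and 0 of 7 stromal genes passed the filter.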

How the data were processed

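RNA-seq of 8 libraries from 200 ng of total RNA each (RNeasy Micro, TruSeq Stranded Total RNA, per the labels' protocols) was analysed. Counts per gene and FPKM values are as deposited by the authors, per the file headers. The submitters' processing notes name the tools StringTie and HISAT2, with mm10 and GRCm38 as builds. Whether counting used strand is not given in the sources used here. Deposited counts and FPKM together implied the same gene length in all libraries within 1% for 17718 of 17718 genes.

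Genes that reached an FPKM of 1 in 4 or more libraries were tested with edgeR 4.0.16 (TMM scaling, quasi-likelihood test, group as the only term, Benjamini-Hochberg over 9913 genes, adjusted p threshold 0.05) in R 4.3.3. DESeq2 1.42.0 was an alternative. CPM were computed from the counts with TMM-scaled library sizes. Scripts were tested on simulated data. At an adjusted p of 0.05 the edgeR test recovered 7.14% of 56 simulated 2-fold changes. It recovered 74% of 73 simulated 4-fold and 98.6% of 71 simulated 8-fold changes, and it called 8 unchanged genes. Most 2-fold differences would therefore be missed in such a simulation. The members and lists were chosen with earlier results of these data known. All 9 members are named, and from each other list the genes past the threshold or, with none, the 2 with the smallest p; 4 lists add their 3 genes of highest mean FPKM. Each member's 3 nearest other genes are also named. Some genes that these rules name are not reported here. Promoters came from RefSeq (GRCm38.p6) and matched 9 of 9 members. Gene coordinates are GRCm38.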

Additional observations from a re-analysis of the deposited data

Results flagged for a closer look

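Of 18 combinations of gene and group, 1 had a library far from the others: Treh in DSS_CA, where DSS_CA 3 stood at 90.3 CPM and the other libraries at 205 to 241 CPM. Chance gives about 1 such result in 20 independent groups. The 18 combinations share the same 8 libraries and are not independent, so their count cannot be weighed against that share. DSS_CA 3 was the highest or lowest DSS_CA library for every sugar gene.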

How the results depend on the processing

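No sugar gene passed an adjusted p of 0.05 in any of 17 alternative fits (adjusted p 0.0721 to 1). Lct, G6pc, Slc5a1 and Slc2a5 kept their direction in all 17. With 1 library left out, the log2 fold change ranged from -1.10 to -0.48 for Lct, 0.23 to 0.88 for G6pc, 0.14 to 0.36 for Slc5a1, 0.02 to 0.46 for Slc2a5, 0.06 to 0.73 for Mgam, -0.55 to -0.09 for Khk, -0.70 to 0.43 for Sis, -0.30 to 0.077 for Treh and -0.17 to 0.38 for Slc2a2. The sign turned for Sis without a filter (0.010), and without DSS 2, DSS 3 and DSS_CA 3 for Mgam (-0.37), Slc2a2 (-0.19) and Khk (0.049). The cause was not tested.

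Over all genes, 4 were higher and 9 lower. The counts were 7 and 20 with RLE scaling, 18 and 61 with no filter, 8 and 19 without mitochondrially encoded genes, 51 and 169 in DESeq2, 234 and 421 without DSS 2, DSS 3 and DSS_CA 3, and 18 and 53 with a gene length offset chosen after seeing the data. With 1 library left out they ranged from 0 to 19 and from 4 to 65. With the replicate block they were 14 and 51. The labels give no pairing, and correlations cannot exclude one. Deviations of same-numbered libraries correlated at 0.75, -0.34, 0.11 and 0.20. DSS 1 and DSS 3 correlated best with their own number, and DSS 2 and DSS 4 did not. In the gene lists other than the KEGG sets 0 genes were higher and 3 lower, against 1 and 8 with no filter and 5 and 28 without those 3 libraries. List medians moved too without those 3 libraries. The sign turned for regulators (0.09 to -0.05), ileal genes (0.07 to -0.22) and the KEGG carbohydrate digestion set (0.07 to -0.06). Galactose genes moved from 0.12 to 0.53 and colon genes from -0.42 to -1.16. The place in the order of FPKM differed between the groups for 4 genes, for 2 in TPM, and for 2 to 6 with 1 library left out. Depth limits G6pc most, at 141 counts in its lowest library.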
